A study of Macaca mulatta with 6 samples.

Results

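CpG shores are the flanks of CpG-dense stretches of the genome. In the catalogue of CpG positions examined here they were defined by position alone, on the 20 autosomes. A run was a series of 40 or more consecutive listed CpGs with no spacing over 50 bases, and a shore CpG was a listed CpG 1 to 2000 bases outside the nearest run edge and inside no run. Of 25805743 autosomal listed CpGs, 1260156 (4.88%) met this rule, out of 26958235 in the whole series. They flanked 19251 runs, which themselves held 1514442 CpGs. No measured methylation value entered the choice.

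The series profiled DNA methylation by bisulfite sequencing, which converts unmethylated cytosines so that they read differently from methylated ones. Peripheral blood mononuclear cells, that is lymphocytes and monocytes, were taken from 6 adult female rhesus macaques (Macaca mulatta), 3 high-ranking animals labelled rank 1 and 3 low-ranking animals labelled rank 5. The labels name no treatment, and sex, adulthood and cell type are shared by both groups. The deposited table gives 12 columns of values without names that tie them to animals. These columns were not used, so no methylation level, depth or rank comparison is given, and what follows is a map of where the listed shore CpGs lie.

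In mammals most CpG sites are methylated, and methylated cytosine tends to be lost by deamination to thymine over evolutionary time, which leaves the genome poor in CpG. CpG islands, many of them at gene starts, are usually unmethylated and keep a high CpG density. Shores are the transition between island and methylated background, and are known as places where methylation often varies between cell types and in disease. Lymphocytes and monocytes differ in methylation at many sites, so a sample of mononuclear cells gives a mixture of their levels.

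Shores held 19.1 listed CpGs per kb, 2.18 times the 8.76 per kb found more than 2000 bases from any run. Runs held 95.2 per kb. Shores covered 66.1 Mb, or 2.44% of the autosomal span, and held 4.88% of the CpGs, against 5.87% for the runs on 15.9 Mb. One shore CpG came on average every 52.4 bases, against every 10.5 bases in runs and every 114 bases beyond the shores. The shore was denser than the remainder on 20 of 20 autosomes, with ratios from 1.68 on chromosome 16 to 2.38 on chromosome 17. These are full counts of one catalogue, without replicates, so no test applies. Chromosomes of one genome are not independent samples.

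Over all autosomes together, CpG density was highest next to the runs and fell outward. The end of a run is by definition a spacing of more than 50 bases, so bases 1 to 50 outside each edge held 0 listed CpGs. Immediately beyond that stretch, bases 51 to 100 held 34.0 CpGs per kb, the highest value of any 50 base step and 3.87 times the density of the remainder. In 200 base bins the values were 24.4 per kb at 1 to 200 bases, where the empty stretch is included, and 27.6 at 201 to 400 bases. Counted over bases 51 to 200 alone, the innermost bin held 33.03 per kb. Density then declined through 22.6 per kb at 401 to 600 bases, 19.9 at 601 to 800 and 17.9 at 801 to 1000.

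The outer part of the shore was flatter. From 1001 to 1200 bases there were 16.6 CpGs per kb, and this was the first bin under 2 times the density of the remainder. The next bins held 15.7, 15.1 and 14.8 per kb, and the outermost, 1801 to 2000 bases, held 14.4. The excess over the remainder had dropped to no more than 50% of its peak by the step from 551 to 600 bases. The innermost bin was thus 1.70 times as dense as the outermost, and 2.30 times when only bases 51 to 200 were counted. The first ratio depends on how a run is defined: with spacings of up to 100 bases allowed in a run it was 0.630, because the empty stretch then takes up bases 1 to 100 of that bin. Counted over the 200 bases after the empty stretch, it was 1.33 under that definition and 2.24 under the one used here.

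**Figure D1:**
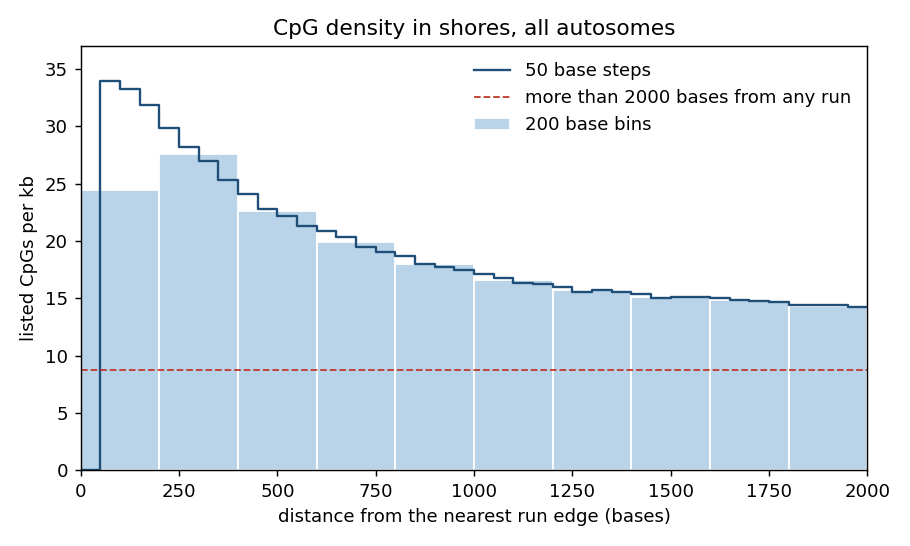
Listed CpGs per kb (vertical axis) by distance from the nearest run edge in bases (horizontal axis), over all autosomes. Bars are 200 base bins, the line 50 base steps, and the dashed line the 8.76 per kb found more than 2000 bases from any run. The line is at 0 for bases 1 to 50, peaks at 34.0 at 51 to 100 bases and stays above the dashed line to 2000 bases.

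The limit of 2000 bases did not mark a step in density. The last bin inside held 14.4 CpGs per kb and the 200 bases just outside, 2001 to 2200, held 14.2. Farther out the decline went on slowly, to 13.3 per kb at 4001 to 6000 bases, 12.5 at 8001 to 10000 and 10.5 at 20001 to 50000 bases. Beyond 100000 bases from any run there were 6.87 per kb. The steepest part of this decline lay inside the shore. The value beyond 100000 bases includes long intervals with no listed CpG, and whether those intervals are sequenced is not stated in the sources.

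The 2 sides of a run had nearly the same profile in aggregate. Shores on the lower coordinate side held 19.09 CpGs per kb and those on the higher side 19.06, and in no 200 base bin did the sides differ by more than 1.74%. Coordinates do not follow the direction of transcription, and the positions were not linked to genes, so upstream and downstream flanks of genes could not be told apart.

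Shores of small and large runs had similar densities. Runs were grouped into 4 classes that begin at 40, 60, 100 and 150 CpGs, the last with no upper limit, and numbered 7795, 7052, 3269 and 1135. Their shores held 19.5, 18.9, 18.4 and 19.06 CpGs per kb. Next to the edge the order was by size, with 32.5, 33.2, 33.5 and 34.5 per kb at bases 51 to 200. At 1801 to 2000 bases the smallest runs had the densest flank, 15.05 per kb, against 13.9, 13.7 and 14.6. The median number of CpGs per shore was 35, 34, 34 and 35. Over 13054 runs with a full shore on each side, Spearman's rho between the CpGs of the run and those of its shores was -0.015.

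The autosomes differed little beside the run and widely at the outer end of the shore. In the innermost bin the density ran from 23.5 per kb on chromosome 10 to 25.3 on chromosome 5, a range of 1.08-fold with a median of 24.4. In the next bin it ran from 25.8 on chromosome 2 to 29.01 on chromosome 20. That bin was the densest on 20 of 20 autosomes, but the innermost bin is lowered by the empty stretch it includes. Over bases 51 to 200 alone the density ran from 31.7 on chromosome 10 to 34.3 on chromosome 5, above the next bin on each autosome. At 801 to 1000 bases the range had widened to 1.50-fold. In the outermost bin chromosome 5 had 10.1 per kb and chromosome 19 had 19.8, a range of 1.95-fold with a median of 13.8. The outermost bin was the lowest on 17 of 20 autosomes. Density fell at every step from the second bin outward on 11 of them.

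Chromosomes 5 and 19, with the fewest and the most runs per Mb, showed this most clearly. On chromosome 5 the innermost bin held 2.49 times the density of the outermost, and on chromosome 19 it held 1.21 times. Chromosome 5 was the highest of all autosomes in the innermost bin and the lowest in the outermost. Beyond the shores chromosome 5 had 7.16 CpGs per kb and chromosome 19 had 12.3. The range over autosomes in the 200 bases after the empty stretch stayed narrower than that of the outermost bin for each of the other run definitions computed, at 1.09-fold against 1.88-fold with 30 CpGs in a run, 1.13-fold against 1.84-fold with 60, 1.13-fold against 1.79-fold with spacings of up to 30 bases and 1.24-fold against 1.67-fold with spacings of up to 100 bases. Each definition sets the same limits on all autosomes. Whether the narrow range beside the run comes from those limits was not tested.

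**Figure D2:**
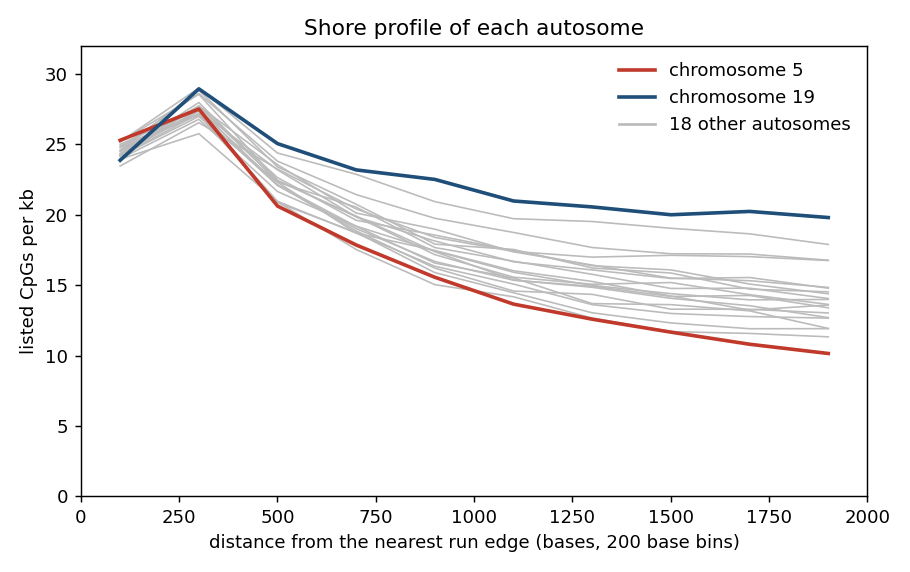
Listed CpGs per kb (vertical axis) by distance from the nearest run edge in 200 base bins (horizontal axis), with 1 line per autosome. The lines lie between 23.5 and 25.3 in the innermost bin and spread to between 10.1 (chromosome 5, red) and 19.8 (chromosome 19, blue) in the outermost.

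Shores took very different shares of the autosomes. On chromosome 19 they held 12.4% of the listed CpGs and covered 8.01% of the span. Chromosome 16 followed with 7.82% of the CpGs, then chromosome 20 with 7.16% and chromosome 10 with 6.08%. On chromosome 5 the share was 2.62% and on chromosome 2 it was 3.29%, against a median of 4.36% over autosomes. In number, chromosome 1 had the most shore CpGs, 124929, and chromosome 18 the fewest, 25955. Runs per Mb varied 6.98-fold over autosomes and shore density 1.37-fold, from 16.6 per kb on chromosome 2 to 22.7 on chromosome 19. Across the 20 autosomes, runs per Mb and the share of CpGs in shores gave r = 0.99 (Pearson) and rho = 0.98 (Spearman). Without chromosomes 16 and 19, r was 0.96. Each run brings its own shores by the rule, so a close relation is largely built in and is not a separate finding. The share of bases in shores varied 6.79-fold, with chromosomes 5 and 19 as the extremes, as for runs per Mb.

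Shores were also denser where the rest of the chromosome was denser. Across the 20 autosomes, shore density and the density beyond the shores gave r = 0.77 (Pearson) and rho = 0.73 (Spearman). Without chromosomes 16 and 19, r was 0.62. With intervals of 1000 bases or more that hold no listed CpG left out of both, r was 0.88. These points share one genome and one catalogue, and the correlations are descriptive. Relative to its own remainder, computed in that last way, the shore was least enriched on chromosome 19, at 1.42 times, and most on chromosome 17, at 2.25 times. With all bases counted chromosome 16 was the lowest, so the lowest autosome depends on how such intervals are treated.

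Shore CpGs were concentrated toward the ends of chromosomes. The outer 5 Mb at each end made up 7.38% of the autosomal span and held 25.9% of shore CpGs, against 22.6% of run CpGs and 11.6% of the CpGs beyond the shores. Of the runs, 21.9% lay there. Shores of these runs held 23.4 CpGs per kb and those of all other runs held 17.9.

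Single shores varied far more than the averages. A shore is here 1 side of 1 run, and 31279 of 38502 shores (81.2%) had their full 2000 bases with no other run within 4000 bases. They held 92.7% of the shore CpGs. The median was 34 CpGs per shore, with quartiles of 24 and 48, and the 5% and 95% quantiles were 13 and 72. At the density of the remainder 2000 bases would hold 17.5 CpGs, and 11.2% of the shores had fewer than that. At the other end, 877 shores (2.80%) held 80 or more.

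The outward fall held for most single shores but not all. The inner 1000 bases held more CpGs than the outer 1000 in 70.3% of these shores, fewer in 26.02% and as many in 3.63%. The medians were 20 and 13 CpGs. The 2 shores of one run resembled each other only weakly. Over the 13054 runs with 2 full shores, the counts on the sides were related with Pearson's r = 0.22 and rho = 0.21 (Spearman), and pairs share a chromosome and its local density. The richer side held a median of 43 CpGs and the poorer side 26. In 27.5% of these runs one side held at least 2 times as many as the other.

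**Figure D3:**
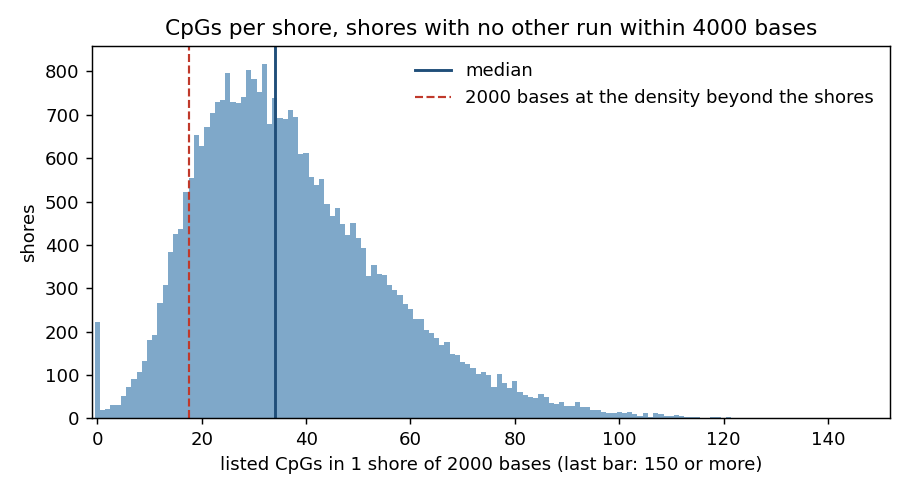
Number of shores (vertical axis) by the number of listed CpGs in the shore (horizontal axis), for the 31279 shores of 2000 bases with no other run within 4000 bases. The solid line is the median of 34, and the dashed line the 17.5 CpGs that 2000 bases would hold at the density beyond the shores. A separate bar stands at 0, for 222 shores with no listed CpG.

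The shores with the most CpGs were dense stretches broken by a few wide spacings. The highest count was 155, on chromosome 16 from base 47746886 to 47748885, below a run of 84 CpGs. That is 77.5 per kb, or 8.84 times the density of the remainder. Its CpGs had a median spacing of 7 bases, the same as in runs, and 5 spacings exceeded 50 bases, the longest of them 85 bases. The largest group of closely spaced CpGs in it had 34 members, under the 40 that would have made it a run.

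The next 4 shores were of the same kind. On chromosome 2, bases 70381429 to 70383428 held 142 CpGs with 7 spacings over 50 bases and a largest group of 39. On chromosome 12, bases 63054628 to 63056627 held 128, with a largest group of 37. On chromosome 15, bases 36399385 to 36401384 held 127, with a largest group of 38. On chromosome 11, bases 5560068 to 5562067 held 125, with a largest group of 39. The runs beside them held 49, 73, 66 and 58 CpGs. In each of these shores the largest group had between 34 and 39 CpGs, so their place among the shores rests on the limits of 40 CpGs and 50 bases.

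At the opposite extreme, 222 full shores (0.710%) held no listed CpG, while 19 held exactly 1. The empty class thus stood apart from the low end of the distribution. Of the 222, 108 had a listed CpG again between 2000 and 4000 bases from the edge. In the order of the chromosomes, the first 5 of the 108 all lay on chromosome 1, from bases 519222 to 521221, 1566591 to 1568590, 2319845 to 2321844, 3292436 to 3294435 and 17557357 to 17559356. Their nearest listed CpGs outside the run were 2961, 2782, 2883, 3678 and 3446 bases away. Runs beside them held 200, 46, 99, 43 and 131 CpGs. Whether these flanks hold sequenced bases, or CpGs that the table does not list, was not tested.

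The full shores of the 3 largest runs held from 15 to 90 CpGs. The run of 576 CpGs on chromosome 15 ended in shores of 29 CpGs on its lower side (bases 107028943 to 107030942) and 15 on its higher side (bases 107036190 to 107038189). The latter is 7.5 per kb, 0.856 times the density of the remainder, with its first CpG 495 bases from the edge. The run of 570 CpGs on chromosome 19 had 42 below (bases 1230604 to 1232603) and 90 above (bases 1238186 to 1240185). The run of 452 on chromosome 15 had 61 above, from base 1414753 to 1416752. Below it another run lay 384 bases away, and the 191 bases nearer to the larger run held 0 CpGs.

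At most run edges the next listed CpG lay within 100 bases. The first listed CpG outside an edge was a median of 72 bases away, with quartiles of 59 and 105. It lay at 51 to 60 bases for 29.9% of the 38502 edges and at 51 to 100 bases for 73.1%. It lay more than 500 bases away for 3.89%, and more than 2000 bases away for 229 edges. For 16.7% of edges it lay beyond 100 and within 200 bases.

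Shore CpGs were more clustered than those beyond the shores. They were less clustered than CpGs in runs, but runs are defined by close spacing and shores lie outside them. The comparison with runs is thus largely built in by the rule and is not a separate finding. Neighbouring shore CpGs were a median of 23 bases apart, with quartiles of 9 and 53, against 7 bases in runs and 47 beyond the shores. In shores 29.1% of spacings were 10 bases or less, against 64.2% in runs and 16.5% beyond. Spacings over 100 bases made up 11.7% in shores and 31.2% beyond. Spacings that cross a shore limit were left out of these values. The median distance to the nearer neighbour grew outward from 9 bases in the innermost bin to 16 in the outermost, while it was 24 beyond the shores.

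Smaller groups of close CpGs were part of this. With the same limit of 50 bases, 20.7% of shore CpGs lay in groups of 10 to 19 and 18.7% in groups of 20 to 39, against 9.87% and 6.08% beyond the shores. CpGs with no neighbour within 50 bases made up 11.9% of shore CpGs and 29.6% of those beyond. Groups of 20 to 39 numbered 142 per Mb of shore and 22.6 per Mb of the remainder, a ratio of 6.28, and those of 10 to 19 numbered 303 and 63.4 per Mb, a ratio of 4.77. By distance, each group was placed by its end nearer to the run. Those of 20 to 39 numbered 464 per Mb in the innermost bin, 171 in the next and 73.1 in the outermost. The first CpG outside an edge always opens a new group, so this placement fills the innermost bin in part by the rule. Counted by CpG instead, groups of 20 to 39 held 20.3% of CpGs in the innermost bin, 27.9% in the next and 12.2% in the outermost. Shores held 13.6% of all such groups on 2.44% of the span.

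In fixed 1 kb tiles, 33.6% of shore CpGs fell in tiles with 40 or more CpGs and 38.3% in tiles with 20 to 39. For CpGs beyond the shores these shares were 2.22% and 23.6%. A dense tile may also hold part of a run, since tiles take no account of run edges. Tiles with 1 to 4 CpGs held 0.712% of shore CpGs and 7.91% of those beyond.

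Where runs lay close together the ground between them was denser than other shores from 201 bases outward. Neighbouring runs were a median of 38206 bases apart, and 3609 of 19231 neighbouring pairs (18.8%) were separated by 4000 bases or less. The 91854 CpGs between them were 7.29% of shore CpGs, at 26.3 per kb. In 1008 of these stretches the separation was 100 bases or less, which by the rule leaves no room for a listed CpG. At matched distance the innermost bin held 23.8 CpGs per kb between close runs and 24.5 in shores with 1 run near, a ratio of 0.969. The empty stretch takes up a larger part of that bin between close runs, where many stretches are short. That ratio is thus set in part by the rule and does not show which ground is denser there. From 201 bases outward the ground between close runs was the denser in each bin. At 201 to 400 bases there were 32.5 CpGs per kb between close runs and 27.1 in shores with 1 run near, and at 1001 to 1200 bases there were 23.8 and 16.3. At 1801 to 2000 bases there were 22.3 and 14.3, a ratio of 1.56 that rests on 527 CpGs between close runs.

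A pair of recurring orders of 5 spacings was less frequent in the innermost part of the shore than farther out in it. One order has spacings of 4, 5, 38, 2 and 4 bases and the other 24, 20, 4, 8 and 4 bases, each counted in either direction and placed by one of its middle CpGs. The first occurred 1035 times in shores, 8.21 times per 10000 listed CpGs, against 11.7 beyond the shores. The second occurred 612 times, 4.86 per 10000, against 6.61 beyond. In the innermost bin the rates were 2.09 and 0.452 per 10000 (37 and 8 occurrences). They reached 9.07 and 4.91 at 801 to 1000 bases. Both were highest at 1601 to 1800 bases, at 13.9 and 8.97 (130 and 84 occurrences). In the outermost bin they were 12.3 and 7.87 (111 and 71 occurrences).

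These rates are per listed CpG, whose density changes along the shore. Per Mb of sequence the first order also rose, from 5.10 in the innermost bin to 17.7 in the outermost, and the second from 1.10 to 11.3. The rise was not steady, and both were highest at 1601 to 1800 bases, at 20.6 and 13.3 per Mb. Over the whole shore, however, both were more frequent per Mb than beyond, at 15.7 against 10.3 and 9.26 against 5.79, so the direction of that comparison depends on the scale. The same holds for runs. Inside them the orders occurred at 28.3 and 13.9 per Mb, above shores and remainder, but at 2.98 and 1.46 per 10000 CpGs, below both. At 2001 to 4000 bases the rates were 14.8 and 7.95 per 10000 CpGs and 20.4 and 11.0 per Mb. A copy within 50 bases of a run belongs to the run by the rule, and the empty stretch leaves part of the innermost bin without any, so that bin is set in part by the definition.

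**Figure D4:**
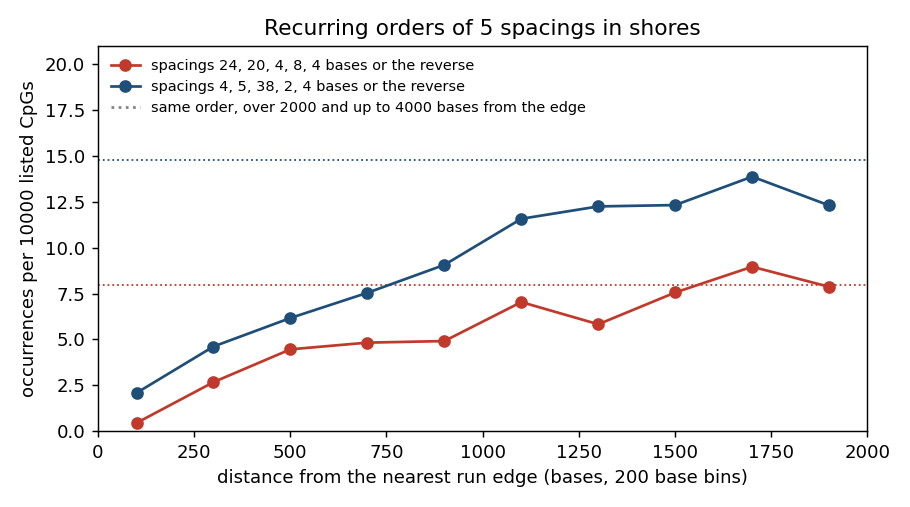
Occurrences per 10000 listed CpGs (vertical axis) of the 2 recurring orders of spacings, by distance from the nearest run edge in 200 base bins (horizontal axis). Dotted lines give the rate of each order at 2001 to 4000 bases. The points start at 2.09 and 0.452 in the innermost bin, are highest at 1601 to 1800 bases (13.9 and 8.97) and end at 12.3 and 7.87 in the outermost.

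Single spacings that are frequent beyond the shores were less so within them. Against the median of the 8 spacings around it, the spacing of 24 bases was 1.24 times as frequent in shores, 1.52 times beyond them and 1.14 times in runs. That of 8 bases was at 1.29 in shores, 1.75 beyond and 0.933 in runs, and that of 38 bases at 1.31, 1.53 and 1.18. In shores these spacings stood between their levels in runs and beyond. They were picked with a limit of 1.3 on this ratio, which all of them reached beyond the shores. Lower values in shores and runs are thus built in part into the choice and are not a separate finding.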

How the data were processed

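Bisulfite libraries of 6 animals were sequenced, and the authors deposited 1 headerless table for the series. Bismark, which aligns bisulfite reads and reads out methylation, is named in the submitters' processing notes with no version. No genome build or site filter is given in the sources used here, so coordinates are those of the table, 1-based, and were not linked to genes or sequence. Only the 3 position columns were used. The 12 columns of values carry no names that tie them to animals and were not used in any step, so the planned comparison of rank groups was not run and the depth behind each position is not reported.

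Each base and each listed CpG outside runs was given to its nearest run edge, measured from the first or last cytosine of the run. Density is listed CpGs divided by the bases at that distance, within the listed span of each chromosome. Named shores are the 5 with the most and the 5 with the fewest CpGs among shores with no other run within 4000 bases and a listed CpG 2000 to 4000 bases out, plus the flanks of the 3 largest runs. The shores and the recurring orders were chosen with earlier results of these data known. Run, distance and base counts were tested on simulated positions with Python 3.11.15, numpy 2.4.6, pandas 2.3.3 and scipy 1.17.1. Positions are a full count, so no p-value is given.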

Additional observations from a re-analysis of the deposited data

How the results depend on the processing

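Each definition was changed in turn. The share of autosomal CpGs in shores, 4.88%, was 6.22% with 30 CpGs in a run, 3.31% with 60, 3.82% with spacings of up to 30 bases and 6.60% with up to 100, and 2.99% and 8.10% for shores of 1000 and 4000 bases. For the density of 19.1 per kb, its ratio of 2.18 to the remainder and the innermost to outermost ratio of 1.70, these gave 18.3, 2.12 and 1.59 with 30 CpGs, 20.2, 2.25 and 1.75 with 60, 25.5, 2.82 and 3.10 with 30 bases, and 14.9, 1.80 and 0.630 with 100 bases. Only runs with no other within 4000 bases gave 18.4, 2.10 and 1.73. Leaving out intervals of 1000 bases or more with no listed CpG gave 19.8, 2.02 and 1.65, and leaving out chromosome 19 gave 18.8, 2.16 and 1.76. The reversal to 0.630 follows from the wider empty stretch beside each run. Counted from beyond it, an alternative chosen after seeing the data, the ratio was 2.24, and 1.33 and 3.59 with spacings of up to 100 and 30 bases. The other alternatives kept the direction of both ratios. All values lay outside a 95% counting interval around the reported ones. That interval treats clustered CpGs as independent and a full count as a sample, so it gives no scale for judging these changes. Changes of the coverage minimum and leaving out animals, foreseen for methylation by rank, were not run because the columns of values name no animal.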
